A study of Mus musculus with 9 samples.

Results

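Scavenger receptors are surface and endosomal proteins with which macrophages bind and take up modified lipoproteins, polyanionic ligands, bacterial surfaces and dying cells. They share ligands rather than a common fold, and the family is divided into structural classes that include collagen-like trimers, proteins with a loop between a pair of membrane spans, lectin-like receptors and large multidomain proteins. In macrophages they are best known for the uptake of oxidised low-density lipoprotein, which loads the cell with cholesterol. The 8 genes described here were chosen by symbol out of 50600 genes in the count and TPM tables. They were the class A receptors Msr1 and Marco, the class B receptors Cd36 and Scarb1, the lysosomal glycoprotein gene Cd68, the lectin-like receptors Olr1 and Mrc1, and the stabilin gene Stab1.

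RNA came from RAW-Blue, a macrophage line of the mouse that carries an inflammation reporter and was cultured in serum-containing medium with Normocin and Zeocin. One group, LPS, was stimulated for 24 hours with 1 µg/ml of lipopolysaccharide and the other, None, was left unstimulated, with 3 libraries each, and both groups carried the same reporter and drug selection. Lipopolysaccharide is a glycolipid of the Gram-negative bacterial envelope and the ligand of Tlr4, and the comparison addresses the response of the cells to that stimulus. A further labelled group, which received vesicles of Peucedanum japonicum before LPS, had no column whose name matched its labels and was not analysed here.

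Libraries held 14650843 to 17665200 expected counts, the estimated reads per gene that RSEM assigns. Nothing in the labels says that replicates came from separate cultures of the 1 line, so the spread that the p-values rest on may be technical. The macrophage markers were present in both groups, with summed levels of 21274 to 23632 TPM in LPS and 14641 to 17375 TPM in None over 11 genes, and none was at 0. Of the 11, 5 were called higher and 4 lower, against 34.0% and 35.1% of all genes tested. The sum is carried by the lysozyme gene Lyz2, at 16563 ± 881 TPM in LPS and 9714 ± 767 TPM in None (SD, n = 3 each). Csf1r (log2 fold change -1.33), Laptm5 (-1.18), Ptprc (-0.46) and Tyrobp (-0.40) were the markers called lower. Those called higher were Cd14 (2.45), Itgam (1.08), Fcgr1 (1.02), Lyz2 (0.99) and Fcer1g (0.60). TPM is the share of a transcript among all transcripts, scaled for its length. Of 6 endothelial markers, which matter here because Stab1 and Olr1 are also known from endothelium, the summed level was 0.09 to 0.25 TPM in LPS and 0.02 to 0.1 TPM in None, and none had enough counts for a test. Fibroblast markers summed to 0.41 to 1.72 TPM in LPS and 0 to 0.01 TPM in None, with Dcn at 50 counts in LPS and 0 in None and Col1a2 at 0 in all libraries. The B cell marker Ms4a1 had 0 counts throughout, while Cd79a was called higher at 1.13 ± 0.296 TPM in LPS and 0.237 ± 0.0666 TPM in None (SD, n = 3 each), having passed the filter on low counts only through the LPS libraries. T cell and epithelial markers were listed at 0 TPM in every LPS library. The part of these low marker signals in the results below was not tested.

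After LPS, 4 of the 6 tested genes were called higher, namely Cd36, Msr1, Mrc1 and Stab1, against 34.0% of all genes tested. Scarb1 was called lower, against 35.1% of all genes tested. Cd36 had the largest fold change of the tested 6, with 10 to 12 counts in each None library, and Msr1 had the largest gain in transcripts, with 360 TPM in LPS and 65.6 TPM in None. Cd68 stayed the most abundant of the family in both groups and was not called. Olr1 had a few counts in the LPS libraries and 0 in the None libraries, and Marco had 0 counts in all 6. In RNA of whole cultures, more cells that express a gene and more of its RNA in each cell cannot be told apart.

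Of the 8 genes 6 passed the filter on low counts and were tested with edgeR's quasi-likelihood test, which called 5 at an adjusted p under 0.05, against 69.1% of all 11916 genes tested. Higher calls were made for 4 of them, against 34.0% of all genes tested, and 1 was lower, against 35.1%. Cd36 and Mrc1 passed the filter only through their LPS libraries, so a difference was built into their being tested, and these counts are a description and no support for a change of the family as a whole. By CPM, the count of a gene relative to the TMM-scaled library total, the groups had no overlap in 5 of the 6 tested genes, against 73.6% of all genes tested. In 4 of them LPS was the higher group, against 35.7% of all genes tested, and in 1 it was the lower, against 38.0%.

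**Figure D1:**
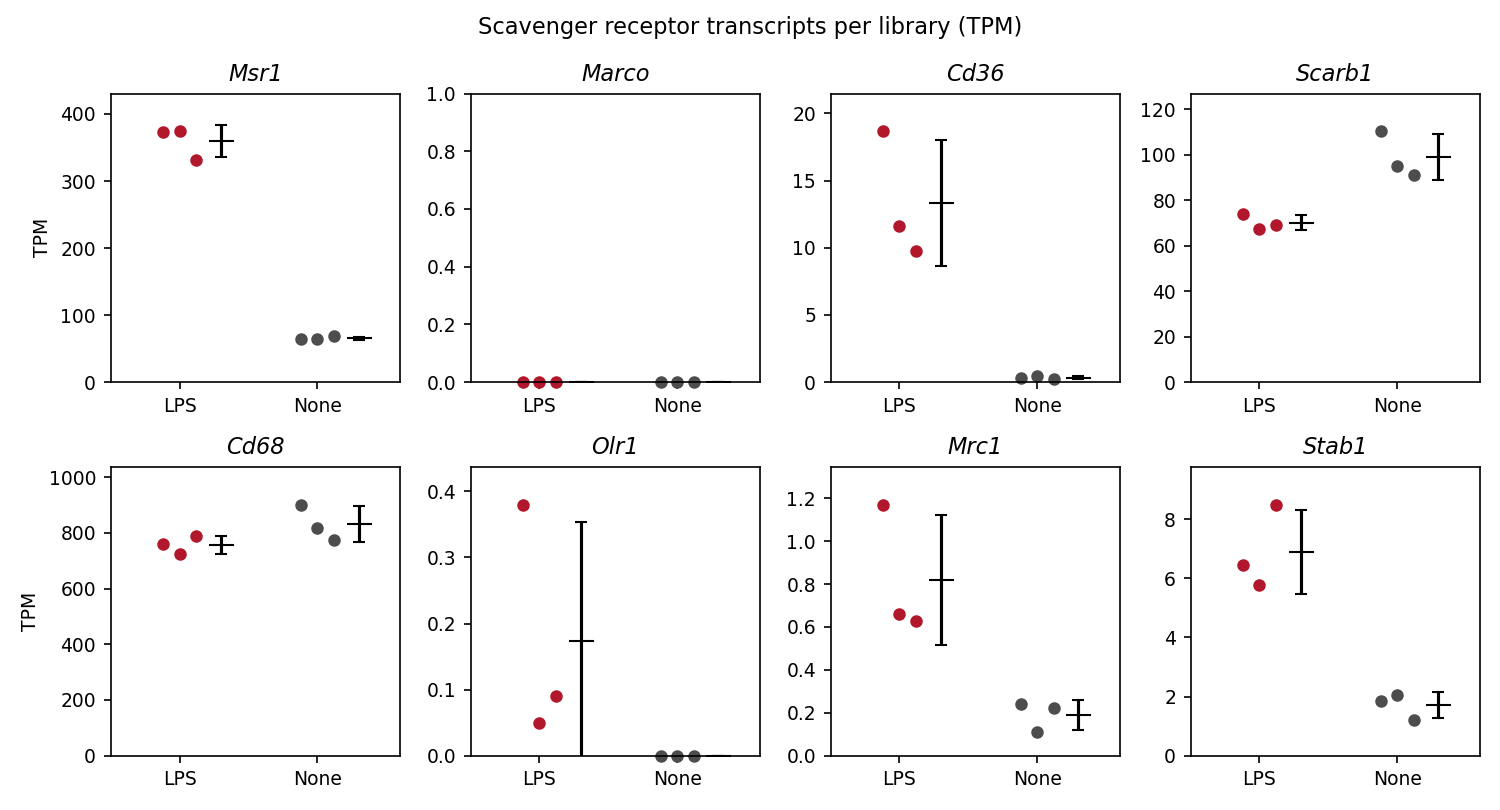
TPM of each of the 8 genes (vertical axes, linear and starting at 0, a scale for each gene) in the 3 LPS libraries (left, red) and the 3 None libraries (right, grey), with the mean and SD beside the points. Msr1, Cd36, Mrc1 and Stab1 sit higher in every LPS library, Scarb1 sits lower, Cd68 overlaps between groups, Olr1 is at 0 in None and Marco is at 0 in both.

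The sequences before the RefSeq starts of 3 of the genes that rose, and of Cd68 for comparison, are shown because these genes differ in their response and the windows can be compared for motifs of factors active in macrophages. RefSeq promoter windows on GRCm38.p6 were found for 6 of the 8 genes, and the 250 bases before the start are printed 5′ to 3′ on the strand of the gene, with matches to the searched motifs in capitals. The motifs were the AP-1 element TGANTCA, the PU.1 core GAGGAA or its complement TTCCTC, the TATA box TATAAA, and the NF-kappaB element, on both strands. AP-1 and NF-kappaB are factors activated downstream of Tlr4, and PU.1 is the lineage factor of macrophages.
Cd36, chr5:17835897-17836146, minus strand: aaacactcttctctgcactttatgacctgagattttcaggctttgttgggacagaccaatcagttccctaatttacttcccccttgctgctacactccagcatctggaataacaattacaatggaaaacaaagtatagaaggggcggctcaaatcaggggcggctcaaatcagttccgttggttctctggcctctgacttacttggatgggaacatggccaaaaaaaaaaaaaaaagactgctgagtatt
Mrc1, chr2:14229164-14229413, plus strand: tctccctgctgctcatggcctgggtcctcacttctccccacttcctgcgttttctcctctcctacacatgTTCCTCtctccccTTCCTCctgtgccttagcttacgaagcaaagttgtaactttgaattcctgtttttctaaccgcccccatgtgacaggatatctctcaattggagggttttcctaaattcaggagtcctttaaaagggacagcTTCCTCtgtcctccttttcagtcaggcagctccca
Stab1, chr14:31168642-31168891, minus strand: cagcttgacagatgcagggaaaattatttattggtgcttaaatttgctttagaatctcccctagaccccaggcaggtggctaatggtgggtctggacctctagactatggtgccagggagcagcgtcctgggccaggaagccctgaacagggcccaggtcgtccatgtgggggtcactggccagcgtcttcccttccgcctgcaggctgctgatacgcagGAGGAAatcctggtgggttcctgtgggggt
Cd68, chr11:69666171-69666420, minus strand: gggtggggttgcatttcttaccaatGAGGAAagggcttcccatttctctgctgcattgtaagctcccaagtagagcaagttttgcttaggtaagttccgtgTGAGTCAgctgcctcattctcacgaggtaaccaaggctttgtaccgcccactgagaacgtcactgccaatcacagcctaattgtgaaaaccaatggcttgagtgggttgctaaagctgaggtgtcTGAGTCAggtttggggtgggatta

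The Mrc1 window held the PU.1 core on the opposite strand at 180, 167 and 35 bases before the start, the Stab1 window held it 30 bases before the start, and the Cd68 window 225 bases before it. The windows of Marco and Olr1, which are not printed, also held it, so that it was found in 5 of the 6 windows, and it was found in 23.3% of all 32851 promoter windows of the same length. The AP-1 element was found in the Cd68 window, 149 and 24 bases before the start, and in the Olr1 window, 60 bases before the start, against 6.75% of all windows. No window of the 6 held the NF-kappaB element or the TATA box, which were found in 7.25% and 12.4% of all windows. The Cd36 window held none of the searched letters, and it belongs to a start that lies inside the gene as the files delimit it. Bases just after that start were found in no annotated transcript of Cd36, unlike those of the other windows. Its lack of matches therefore says less than it would for them. The Mrc1 window runs past the start that the files give, with its last 22 bases in an annotated exon. These matches are letters in a window and not binding sites.

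Of the class A receptors, Msr1 was abundant and Marco was not detected. Msr1 (chromosome 8, 39581685 to 39642620, minus strand, GRCm38, as are all coordinates here) encodes a trimeric collagen-like receptor that takes up acetylated and oxidised lipoproteins and also binds LPS. It had 373, 374 and 332 TPM in the LPS libraries and 63.9, 64.7 and 68.2 TPM in the None libraries. The lowest LPS library was far above the highest None library, and the replicates of each group lay close together. In CPM, Msr1 averaged 616 ± 44.2 in LPS and 104 ± 5.15 in None (SD, n = 3 each). The fitted change was 5.93-fold higher in LPS, a log2 fold change of 2.57 with a standard error of 0.08 and a 95% interval from 2.39 to 2.75 (edgeR, adjusted p = 9.54e-11 after Benjamini-Hochberg correction). By mean TPM Msr1 ranked 374 among 50600 genes in LPS and 1758 in None. The gene has 5 annotated transcripts in GENCODE, 3 of them protein-coding, and 10 exons in the transcript with the longest coding sequence.

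Marco (chromosome 1, 120474538 to 120505024, minus strand), the other collagen-like receptor, which binds bacteria and particles in alveolar and splenic macrophages, had 0 counts in each of the 6 libraries. A count of 0 over 3 libraries allows up to 3 counts, or 0.0719 CPM in LPS and 0.0525 CPM in None. Its nearest annotated protein-coding neighbours, C1ql2 and En1, also had too few counts for a test. A ratio of Msr1 to Marco within a library, which had been planned, could not be formed.

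The class B receptors, which share a loop held by membrane spans at both ends, moved in opposite directions. Cd36 (chromosome 5, 17782367 to 17888747, minus strand) encodes a receptor for oxidised lipoproteins, long-chain fatty acids and thrombospondin. It had 635, 392 and 344 counts in the LPS libraries and 10, 12 and 10 counts in the None libraries. In TPM these were 18.7, 11.6 and 9.77 in LPS and 0.28, 0.48 and 0.26 in None. Every LPS library stood above every None library, and LPS replicate 1 was the highest of its group.

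Cd36 averaged 32.8 ± 10.8 CPM in LPS and 0.560 ± 0.0538 CPM in None (SD, n = 3 each), which the fit gave as 57.8-fold higher. Its log2 fold change was 5.85, with a standard error of 0.29 and a 95% interval from 5.23 to 6.48 (edgeR, adjusted p = 3.43e-09), and it ranked 93 among the increases of all genes tested. Without LPS replicate 1 the log2 fold change of Cd36 was 5.55. At 13.3 ± 4.71 TPM in LPS, Cd36 was still well below Scarb1 and Msr1 in the same libraries.

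Scarb1 (chromosome 5, 125277087 to 125341094, minus strand) encodes the receptor that takes cholesteryl esters from high-density lipoprotein. It had 73.8, 67.3 and 69.2 TPM in the LPS libraries and 110, 94.96 and 91.3 TPM in the None libraries. The groups did not overlap, and the gap between the highest LPS and the lowest None library was of about the size of the spread within None. In CPM Scarb1 averaged 144 ± 9.37 in LPS and 178 ± 15.8 in None (SD, n = 3 each), and it was called lower with a log2 fold change of -0.30, a standard error of 0.08 and a 95% interval from -0.48 to -0.12 (edgeR, adjusted p = 0.00566). Scaling by library totals, which shifted the log2 fold changes of all genes by a median of -0.26, gave -0.56 for Scarb1, so the size of its fall depends on the scaling while the direction was the same under every scaling tried. Gm42633, a predicted transcript of the annotation's TEC type, lies within Scarb1 on the same strand and had too few counts for a test.

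A ratio of 2 genes within a library does not depend on how libraries are scaled. For every 100 transcripts of Scarb1 there were 25.3, 17.2 and 14.1 of Cd36 in the LPS libraries and 0.254, 0.505 and 0.285 in the None libraries. The log2 ratio of Cd36 to Scarb1 differed by 5.79 between the groups, with an exact two-sided permutation p of 0.1, which is the smallest that 3 against 3 libraries can give. With 1 TPM added to both genes, which weighs on the low Cd36 values of None, the difference was 3.86. On expected counts in place of TPM it was 6.13, so the ratio does depend on the measure. Msr1 changed places with Scarb1 in the order of levels, at 5.05, 5.56 and 4.79 transcripts of Msr1 to 1 of Scarb1 in LPS and 0.579, 0.681 and 0.747 in None. Msr1 was below Scarb1 in every None library and above it in every LPS library.

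**Figure D2:**
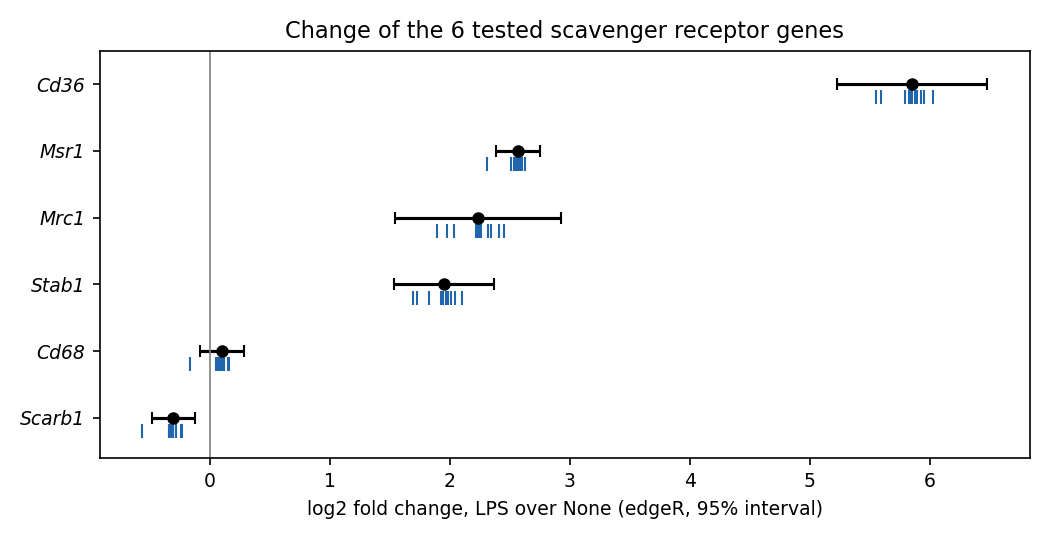
Fitted log2 fold change of LPS over None (horizontal axis) for the 6 tested genes, as black points with 95% intervals, and the same value under each alternative on counts (blue ticks under each point). Cd36 stands at 5.85, Msr1, Mrc1 and Stab1 lie between 1.95 and 2.57, Scarb1 lies below 0 throughout, and the ticks of Cd68 fall on both sides of 0.

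Cd68 (chromosome 11, 69664213 to 69666153, minus strand) encodes a heavily glycosylated protein of late endosomes and lysosomes that is related to the LAMP proteins and is widely used as a macrophage marker. It had 759, 724 and 788 TPM in the LPS libraries and 902, 817 and 774 TPM in the None libraries, and the ranges of the groups overlapped. It ranked 200 among all genes by mean TPM in LPS and 173 in None. In CPM Cd68 averaged 689 ± 50.9 in LPS and 644 ± 45.8 in None (SD, n = 3 each), with a log2 fold change of 0.10, a 95% interval from -0.09 to 0.28 and, in edgeR, an adjusted p of 0.318. The sign turned with the scaling, to -0.16 with library totals and -0.13 on TPM values, and no alternative called it.

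A list of 5 genes for lysosomal membrane proteins held the LAMP relatives of Cd68 and the tetraspanin gene Cd63. The 3 tested were 1 higher, 1 lower and 1 not called, against 34.0% higher and 35.1% lower of all genes tested. Cd63 rose, with 456 ± 48.5 CPM in LPS and 190.4 ± 17.7 CPM in None and a log2 fold change of 1.26. Lamp1, the main membrane protein of lysosomes, fell with a log2 fold change of -0.49. Lamp2 was not called at 0.22, and was called higher by DESeq2 (0.24), with the replicate block (0.21), and without LPS replicate 2 (0.29), LPS replicate 3 (0.28) or None replicate 1 (0.28), but turned to -0.044 with library totals. Lamp3 and Lamp5 had 0 counts.

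By mean TPM the lectin-like receptors were the lowest of the family with any counts in each group where they had counts. Olr1 (chromosome 6, 129485244 to 129507165, minus strand) encodes the lectin-like receptor for oxidised low-density lipoprotein, best known from endothelium. It had 4, 2 and 4 counts in the LPS libraries and 0 in each None library, or 0.38, 0.05 and 0.09 TPM in LPS. The 10 counts of the LPS group, taken as they stand, were at least 4.56-fold higher than a floor of 3 counts over the None group. Their own exact 95% Poisson interval, for counting error only, runs from 4.80 to 18.4, and the fold does not allow for it. The filter on low counts kept Olr1 from the main test, and the difference rests on those 10 counts.

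Mrc1 (chromosome 2, 14229392 to 14332057, plus strand) encodes the macrophage mannose receptor, a multi-lectin endocytic protein that is used as a marker of alternative activation. It had 63, 42 and 44 counts in the LPS libraries and 18, 7 and 18 counts in the None libraries. In TPM these were 1.17, 0.66 and 0.63 in LPS and 0.24, 0.11 and 0.22 in None. The groups did not overlap, and the level was low in both.

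Mrc1 averaged 3.57 ± 0.790 CPM in LPS and 0.756 ± 0.342 CPM in None (SD, n = 3 each) and rose 4.70-fold. The log2 fold change of Mrc1 was 2.23 with a standard error of 0.32, a 95% interval from 1.54 to 2.92 and, in edgeR, an adjusted p of 4.5e-05. Without None replicate 2, the library with 7 counts, it was 1.89. The microRNA gene Mir511 lies within Mrc1 on the same strand and had too few counts for a test. The other mannose receptor family genes were all below the filter, with Ly75 and Pla2r1 at 0 counts and Mrc2 at 6 counts in LPS and 1 in None.

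Stab1 (chromosome 14, 31139013 to 31168641, minus strand) encodes stabilin-1, a very large receptor of macrophages and sinusoidal endothelium that clears modified lipoproteins and matrix proteins and sorts cargo to lysosomes. Its longest annotated coding sequence spans 69 exons and 7713 bases, against 1005 bases for Cd68 and 1374 for Msr1. It had 201, 234 and 328 counts in the LPS libraries and 99, 96 and 75 counts in the None libraries. In TPM these were 6.44, 5.76 and 8.49 in LPS and 1.86, 2.05 and 1.22 in None. Every LPS library was above every None library.

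Stab1 averaged 18.3 ± 4.83 CPM in LPS and 4.74 ± 0.772 CPM in None (SD, n = 3 each) and rose 3.86-fold. The log2 fold change of Stab1 was 1.95 with a standard error of 0.19 and a 95% interval from 1.53 to 2.37 (edgeR, adjusted p = 1.76e-06). The last 112 bases of Stab1 overlap the end of Nt5dc2 on the opposite strand. Nt5dc2 was itself called higher, at 31.1 ± 7.89 CPM in LPS and 16.3 ± 1.26 CPM in None, and since it is not known whether reads were counted by strand, reads in the overlap cannot be told apart. Stab2, the other stabilin gene, had 2 counts in LPS and 3 in None.

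The number of counts behind 1 TPM of a gene follows the length of the transcripts to which the reads were assigned, and it can differ between groups where several isoforms are annotated. Relative to its own mean and to the median gene of each library, this ratio for Stab1, with 13 annotated transcripts, was 0.743, 1.01 and 0.899 in the LPS libraries and 1.13, 0.955 and 1.21 in the None libraries. For Cd36, with 6 annotated transcripts, it was 1.09, 1.13 and 1.10 in LPS and 1.02, 0.686 and 1.02 in None. Cd36 in None rests on 10 to 12 counts a library. The ratio of the group means was 0.806 for Stab1 and 1.22 for Cd36, while for Cd68 it was 1.01, and whether isoforms of Stab1 or Cd36 differed between the groups was not tested.

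By mean TPM the order in LPS was Cd68, Msr1, Scarb1, Cd36, Stab1, Mrc1 and Olr1, and in None it was Cd68, Scarb1, Msr1, Stab1, Cd36 and Mrc1. In each group the libraries of neighbouring genes in that order did not overlap. Together the 8 genes came to 1232, 1184 and 1208 TPM in the LPS libraries and 1078, 979.7 and 935 TPM in the None libraries. Cd68 made up 62.7% ± 2.24 of that sum in LPS and 83.3% ± 0.447 in None (SD, n = 3 each). Msr1 made up 29.8% ± 2.12 in LPS and 6.61% ± 0.682 in None, and Scarb1 5.80% ± 0.165 in LPS and 9.89% ± 0.295 in None. Cd36, for all its fold change, was between 0.809% and 1.52% of the sum in LPS.

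**Figure D3:**
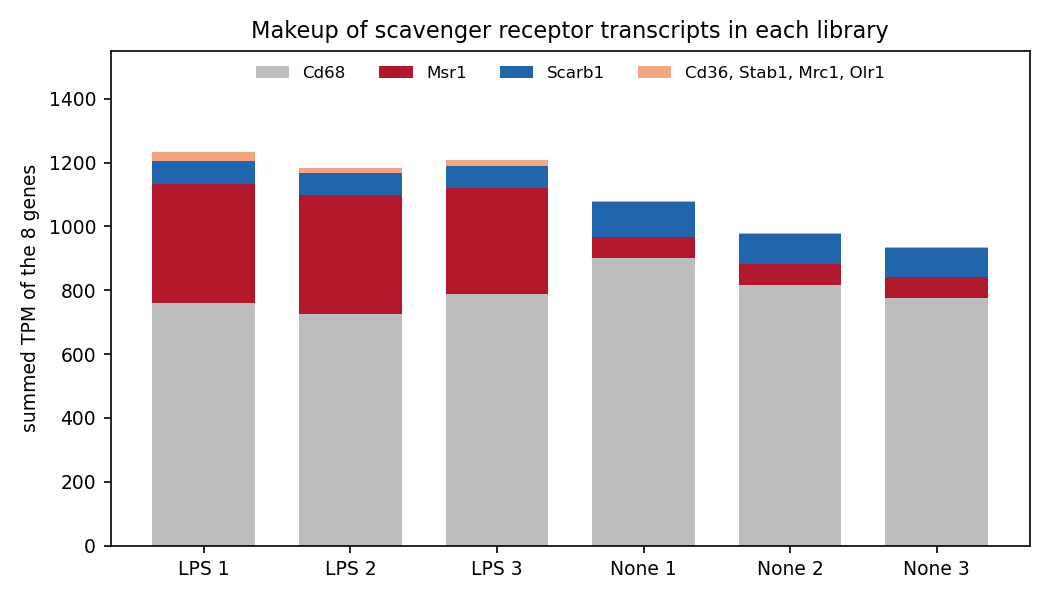
Summed TPM of the 8 genes (vertical axis, from 0) in each LPS library (left) and each None library (right), divided into Cd68 (grey), Msr1 (red), Scarb1 (blue) and the sum of Cd36, Stab1, Mrc1 and Olr1 (orange). The red Msr1 block is about 27.5% to 31.6% of each LPS bar and 5.93% to 7.29% of each None bar, and Cd68 is the tallest block in all 6.

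Neighbouring protein-coding genes had changes of their own. Tusc3, which lies 416570 bases from Msr1, rose with a log2 fold change of 0.90, and the neighbours of Cd36 and Mrc1 on either side had too few counts for a test. Beside Stab1, Nisch at a gap of 2288 bases was not called (-0.04) and Smim4 was lower (-0.41). Beside Cd68, the translation factor gene Eif4a1, at a gap of 782 bases, was higher (0.35) and Mpdu1 was not called (0.08). Olr1 lies in a cluster of lectin-like genes, where Clec1a was called lower at 0.0484 ± 0.0838 CPM in LPS and 2.39 ± 0.609 CPM in None. Clec1a passed the filter on low counts only through its None libraries, so a difference was built into its being tested.

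The genes whose log2 CPM followed that of Cd36 most closely over the 6 libraries were the Notch pathway transcription factor gene Rbpj, the phosphohydrolase gene Nudt3 and the alarmin gene Il33, with Pearson correlations of 0.9999, 0.9997 and 0.9997. Il33 had 0 counts in None and 454 CPM in LPS, and Rbpj had 653 CPM in LPS and 243 CPM in None. The genes nearest to Scarb1 were Cdc42se1, the tyrosine kinase gene Abl1 and Brat1, at 0.9964, 0.9963 and 0.9904, all lower in LPS, although Brat1 lost its call without None replicate 1. These correlations are a description over 6 libraries that share a division into groups of 3.

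A list of 14 other scavenger receptor genes had 6 members with enough counts. In LPS 2 were higher and 4 lower, against 34.0% and 35.1% of all genes tested. Their median log2 fold change was -0.72, against -0.03 over all genes tested. Clec7a, the beta-glucan receptor, fell to 9.73 ± 4.70 CPM in LPS, against 78.6 ± 17.2 CPM in None. Colec12, a collagen-like class A relative of Msr1, fell with a log2 fold change of -0.92. Scarb2, the lysosomal class B relative of Cd36 and Scarb1, fell with -0.83. Cd44, the hyaluronan receptor, rose to 538 ± 22.9 CPM in LPS, against 196 ± 11.5 CPM in None.

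The class A genes Msr1 and Colec12 had log2 fold changes of opposite sign, and 2 of the 3 tested class B genes were lower while Cd36 was higher. The number of other receptors called higher was 1 with library totals, on TPM values, and without LPS replicate 1, None replicate 2 or None replicate 3. Fewer of all genes were called higher in each of these alternatives too. Cd163, the haemoglobin receptor, and Scara3, Scara5, Scarf2 and Megf10 had 0 counts in all libraries.

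**Figure D4:**
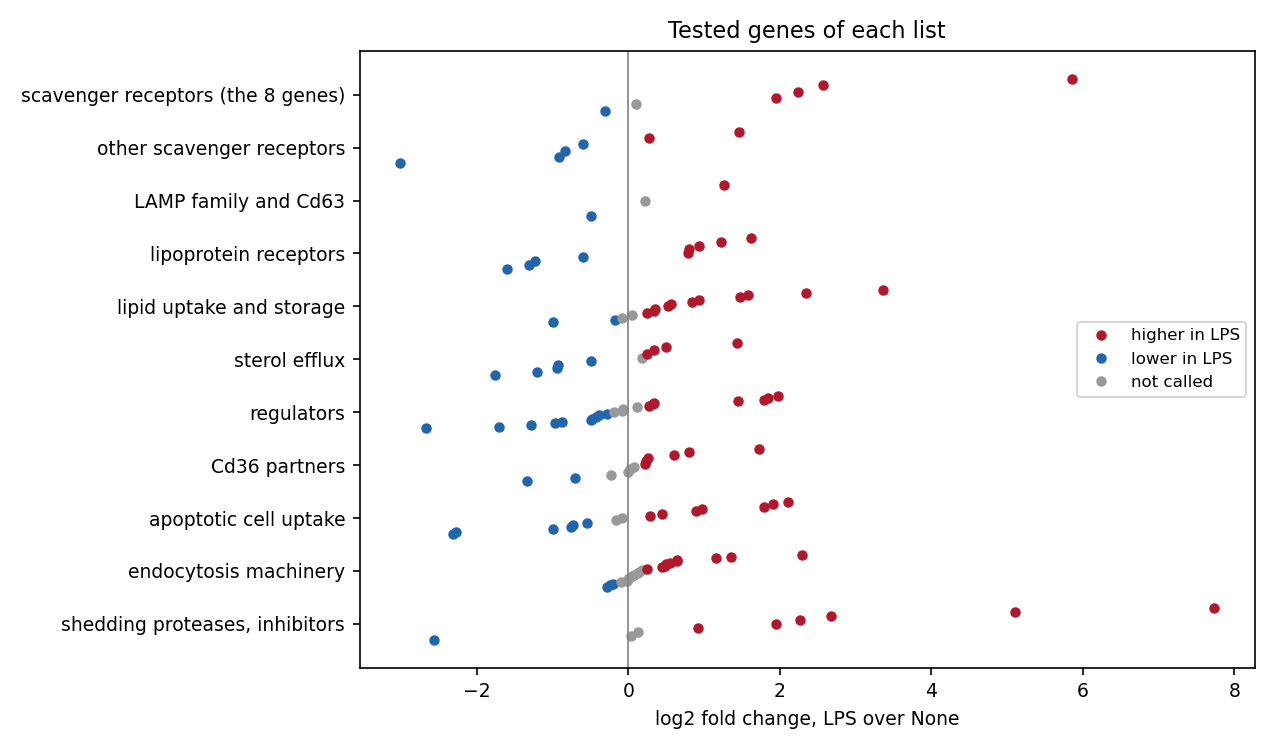
Fitted log2 fold change of LPS over None (horizontal axis) for each tested gene of the 8 scavenger receptors and of 10 lists of related genes (rows), in red where called higher, blue where called lower and grey where not called. Most lists hold genes on both sides of 0, and Cd36 at 5.85 lies to the right of all points but that of Timp1, whose fitted value rests on 0 counts in None.

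Genes that handle the lipid such receptors deliver were called in both directions. Of 15 tested genes of lipid uptake and storage 11 rose and 2 fell, against 34.0% higher and 35.1% lower of all genes tested. Their median log2 fold change was 0.53. The list counts were 8 and 2 on TPM values and 8 and 4 by library totals. Calls over all genes moved as well. On TPM values (log2 of TPM + 1) 2795 of the 11916 genes tested were higher and 5142 lower, and with library totals 2679 and 6076. The list counts of these alternatives, here and in the paragraphs below, are to be read against those figures. Hilpda, which inhibits the main lipid droplet lipase, rose 10.2-fold to 121 ± 40.7 CPM in LPS, against 11.8 ± 0.987 CPM in None. The fatty acid binding protein gene Fabp5 rose 5.09-fold, the acyl-CoA synthetase gene Acsl4 rose 2.98-fold, and Plin2, which coats lipid droplets, rose 2.77-fold. Fabp4 had 21 counts in LPS and 2 in None and was not tested.

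Sterol efflux and lysosomal sterol genes divided, with 4 of 10 higher and 5 lower, against 34.0% and 35.1% of all genes tested. Their median log2 fold change was -0.16. On TPM values, and likewise with library totals, the counts were 1 and 5. Fewer of all genes were higher in both alternatives too, and more were lower. Npc2, which binds cholesterol in lysosomes, rose 2.71-fold to 1221 ± 216 CPM in LPS, against 450.4 ± 33.2 CPM in None. The lysosomal acid lipase gene Lipa fell with a log2 fold change of -1.20, Cyp27a1 with -0.95 and Apoe with -1.77. Apoe was low in both groups, at 0.720 ± 0.151 CPM in LPS and 2.46 ± 0.528 CPM in None.

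Lipoprotein receptor genes were higher in 5 of 9 tested and lower in 4, against 34.0% and 35.1% of all genes tested. The counts were equal on TPM values and with library totals. Lrp12 rose 3.06-fold, while the sorting receptor genes Sorl1 (-1.60) and Sort1 (-1.32) and the ubiquitin ligase gene Mylip (-1.24) fell.

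Transcription factors that are known to act on scavenger receptor genes in macrophages were higher in 7 of 21 tested and lower in 10. The shares over all genes tested were 34.0% and 35.1%. For the list, the counts were 4 and 13 with library totals and 4 and 12 on TPM values. Calls over all genes moved the same way in both alternatives, with fewer higher and more lower. Cebpb (1.98), Ets2 (1.84) and Hif1a (1.79) rose. Pparg, the nuclear receptor best known for driving Cd36 transcription, had 1 count in LPS and 1 in None, and Ppara and Maf had 0. Spi1, which encodes PU.1, was not called, with a log2 fold change of 0.11.

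Of 12 tested genes for partners of Cd36, which include its coreceptors, kinases and palmitoylating enzymes, 6 were higher and 2 lower. Of all genes tested, 34.0% were higher and 35.1% lower. For the partners, the counts were 3 and 4 on TPM values and likewise with library totals. Over all genes, too, fewer were then higher and more lower. The tetraspanin gene Cd9 rose 3.30-fold to 1592 ± 192 CPM in LPS, against 482 ± 32.5 CPM in None. The related Cd81 fell to 24.8 ± 3.41 CPM in LPS, against 62.6 ± 0.300 CPM in None. The kinase gene Lyn rose with 0.80 on the log2 scale, and Zdhhc4, whose enzyme palmitoylates Cd36, fell with -0.71. Thbs1, which encodes the Cd36 ligand thrombospondin, had 22 counts in LPS and 0 in None and was below the filter.

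Genes of the uptake of apoptotic cells, a function that Cd36 and Stab1 share, were higher in 7 of 15 tested and lower in 6. Over all genes tested 34.0% were higher and 35.1% lower. The counts of the list were 5 and 8 with library totals and 5 and 7 on TPM values. All genes tested shifted likewise in these alternatives, to fewer higher and more lower. The phosphatidylserine receptor gene Cd300lf rose 4.30-fold and the receptor kinase gene Axl rose 3.76-fold. The lipid receptor gene Trem2 fell to 61.1 ± 5.07 CPM in LPS, against 306 ± 17.5 CPM in None, and Gas6, which encodes the ligand of Axl, fell to 0.577 ± 0.333 CPM in LPS, against 2.81 ± 1.46 CPM in None. Timd4 had 0 counts, and Mertk had 2 in LPS and 0 in None.

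Of 22 genes of the endocytic machinery, all tested, 10 were higher and 3 lower, against 34.0% and 35.1% of all genes tested. With library totals the counts were 8 and 7, and on TPM values 9 and 4. Both alternatives also had fewer higher and more lower calls over all genes. The clathrin adaptor gene Dab2 rose 4.89-fold to 457 ± 24.0 CPM in LPS, against 93.5 ± 8.66 CPM in None. The early endosome tether gene Eea1 rose 2.57-fold, the recycling GTPase gene Rab11a 2.23-fold and the adaptor subunit gene Ap2s1 1.56-fold.

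Proteases that release receptor ectodomains, with their inhibitors, were higher in 6 of 9 tested and lower in 1. The shares over all genes tested were 34.0% and 35.1%. With library totals the counts were 6 and 2, and on TPM values 6 and 1, while over all genes fewer were then higher and more lower. Mmp14 and Timp1 passed the filter only through their LPS libraries and Timp2 only through its None libraries. A difference was thus built into their being tested. Adam8 rose 6.38-fold to 1405 ± 43.9 CPM in LPS, against 220.3 ± 4.18 CPM in None. The membrane metalloprotease gene Mmp14 had 49, 20 and 17 counts in the LPS libraries and 3, 0 and 0 in the None libraries, a ratio of 39.3 with an exact 95% interval from 13.0 to 194 that covers counting error only. Its fitted log2 fold change, 5.10, was 4.49 without LPS replicate 1, and without None replicate 1 no Mmp14 counts were left in None. The inhibitor gene Timp1 had 67 counts in LPS and 0 in None which is at least 30.6-fold higher if None is set to a floor of 3 counts in all, while Timp2 fell to 0.192 ± 0.111 CPM in LPS, against 1.18 ± 0.220 CPM in None. Adam10 and Adam17, the broad-acting sheddases, lay at 0.03 and 0.13 and were not called.

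Across the 11 lists of related genes, of which 10 had tested members, 119 of 154 genes were tested. Of these, 2 (Mmp14 and Timp1) passed the filter only through the LPS libraries. Another 4 (Apoe, Dgat2, Gas6 and Timp2) passed it only through the None libraries. A difference was built into the testing of these genes. Lrp1, Nr1h2 and Nr1h3 are each in 2 of these lists.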

How the data were processed

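Per the labels' protocols, RNA libraries of RAW-Blue cells were sequenced by BGI in paired reads of 100 bases and filtered with SOAPnuke. Among the tools in the submitters' processing notes are RSEM 1.3.1 and STAR 2.7.10a, with the build GRCm38; strand setting and RNA selection are not given in the sources used here. The authors deposited a table of RSEM expected counts and a table of TPM values for 50600 genes. In the deposited expected counts 96.1% of values were whole within 1e-06. Each table has 12 library columns that match no sample label, and these were not used. No values of LPS-PjELNs were analysed here.

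Expected counts were rounded and tested for LPS against None, with 3 libraries each, by edgeR 4.0.16 (R 4.3.3) with the quasi-likelihood test, TMM scaling and filterByExpr (minimum count 10, minimum total 15). P-values were adjusted by Benjamini-Hochberg over all 11916 genes tested, with a threshold of 0.05. The 530 rows without a symbol, which held 0.0231% to 0.0318% of counts, went through the same filter and fit under their gene identifiers. Alternatives were RLE scaling, library totals, DESeq2 1.42.0, other filters, the replicate number as a block, limma 3.58.1 on log2(TPM + 1) and log2(TPM + 0.1), and leaving out each library in turn. The procedure was tested on simulated data with 50 genes changed at each size. It recovered 68%, 92%, 98% and 96% of them at log2 changes of 0.5, 1, 2 and 4. Of its calls, 4.32% were false. Far fewer genes changed there than were called here, so it does not show how calls depend on scaling.

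All 8 genes are named. Of each other list the up to 4 tested genes with the largest absolute log2 fold change are named, and genes with too few counts for a test may be. Genes of these lists named outside this rule are Spi1, Adam10 and Adam17, chosen after their values were seen. Lrp1, Nr1h2, Nr1h3 and Dgat2 are named only for their place in the lists or the filter. Cell type markers and neighbouring genes were also named outside this rule. For Cd36 and Scarb1, the 3 genes nearest in log2 CPM are named, out of those with a mean of at least 5 CPM. Some genes that the rule names are not reported here. The genes and lists were chosen with earlier results of these data known. Promoter sequences are from RefSeq on GRCm38.p6 and gene spans from the deposited tables, with starts counted from 1. Intervals and floors on counts cover counting error only.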

Additional observations from a re-analysis of the deposited data

How the results depend on the processing

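The 4 higher calls and the 1 lower call among the 8 genes held under every alternative run, and DESeq2 and the edgeR fit without a filter each called 5 higher, with Olr1 added (log2 fold change 4.65, adjusted p = 0.0189 by DESeq2, and 5.02, adjusted p = 0.00382 by edgeR without a filter). Limma on unfiltered log2(TPM + 1) gave Olr1 0.22 with an adjusted p of 0.147. Cd68 turned to -0.16 with library totals, to -0.13 with limma on log2(TPM + 1), with or without the filter, and to -0.13 on log2(TPM + 0.1), and was called in none of them. Lamp2 turned to -0.044 with library totals. Library totals moved the genes called higher to 2679, against 4052 as reported, and the share of higher among called genes to 30.6%, against 49.2%; on log2(TPM + 1) that share was 35.2%. Median shifts of all genes were -0.26 with library totals and -0.20 on log2(TPM + 1). A pseudocount shrinks low genes. On TPM values Cd36 was 3.38 with 1 TPM added and 4.91 with 0.1 TPM, and Mrc1 0.60 and 1.65. The pseudocount is not the whole difference from the fit on counts. With nothing added, the ratio of mean TPM of Cd36 in LPS over None was 39.3, against 57.8-fold in that fit. The log2 ratio of Cd36 to Scarb1 differed by 3.86 with 1 TPM added to both. Leaving out 1 library at a time gave 5.55 to 6.03 for Cd36, 2.51 to 2.62 for Msr1, 1.89 to 2.45 for Mrc1, 1.73 to 2.10 for Stab1 and -0.34 to -0.23 for Scarb1. Brat1 had -0.26 without None replicate 1 (edgeR, adjusted p = 0.0502). Deviations of same-numbered libraries from their group means had correlations of 0.08, -0.02 and 0.01, against -0.06 to 0.07 for differently numbered ones. With 3 libraries a group this cannot settle whether the numbers pair the samples. With the replicate block 4114 genes were higher and 4248 lower, and 4 and 1 of the 8 genes. Counts for single lists moved by over 1.5 times in 43 of their alternatives, mostly small counts. Low counts limit what can be said of Olr1, Marco and Mrc1, and of Cd36 in None.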
